A study of Saccharomyces cerevisiae with 8 samples.

Results

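HUG1, RNR2, RNR3, RNR4, RFX1, DUN1, RAD54 and DIN7 are 8 genes of the DNA damage response of the budding yeast Saccharomyces cerevisiae. They were taken by gene symbol from the platform annotation of an Affymetrix expression array, each was read by 1 probe set, and they are 8 of the 5449 S. cerevisiae genes that a probe set named. The genes were chosen by their differences in signal between the strains on these same arrays, since they were listed with those results known, so their levels and differences are given below as a description, without a test. DIN7 was among the dimmest 20% of probe sets, which were left out of the tests, and the other 7 were kept.

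RNA was measured on 8 arrays of 3 strains. The wild type (ESA1 SUP2) had 2 arrays, the sup2- strain (labelled ESA1 sup2-) had 3 and the double mutant (esa1 sup2-, which carries sup2- too) had 3. ESA1 encodes the catalytic subunit of the histone acetyltransferase complex NuA4, which acetylates histone H4. The labels used here do not say which gene SUP2 is, how either allele was made, what the parent strain was or how many clones were used. All strains had been grown to saturation overnight at 30 °C in 10 mL of rich medium with 2% glucose, and the labels name no DNA-damaging agent for any of them. The sup2- strain differs from the wild type in SUP2, the esa1 sup2- strain from the sup2- strain in ESA1, and the esa1 sup2- strain from the wild type in both. The 3 comparisons share their arrays, and their values are set side by side. Separate cultures are not stated for the arrays of a strain. Each p-value therefore sets a difference only against the spread among these arrays, pooled over the 3 strains, and that spread may be technical.

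Ribonucleotide reductase makes the deoxyribonucleotides for DNA synthesis and repair, from a large subunit (Rnr1, or its paralog Rnr3) and a small subunit of Rnr2 and Rnr4. When DNA is damaged or replication stalls, the kinase Mec1 activates Rad53 and Dun1. Dun1 then relieves several brakes on the enzyme: the inhibitor Sml1 of the large subunit, Dif1, which brings the small subunit into the nucleus, and the repressor Rfx1, also called Crt1. Rfx1 recruits the Tup1-Cyc8 corepressor to RNR2, RNR3, RNR4, HUG1 and its own gene, and its loss from these promoters is the textbook route by which damage turns them on together. Hug1 is a small protein that binds the small subunit and restrains the enzyme.

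Each array's signals had been scaled before deposit to a trimmed mean between 500.201 and 500.284, and 97.6 to 99.3% of the S. cerevisiae probe sets lay above the background bound of the array (8.23 to 12.4, the 99th percentile of the 1746 probe sets whose genes are not in the S. cerevisiae table). All 8 genes lay above this bound on all 8 arrays. ESA1 itself read 1216 and 1068 in the wild type and 819, 894 and 877 in the sup2- strain. In the esa1 sup2- strain it read 1.19, 3.34 and 0.267, below the bound, as its label has it. Fluidics station 1 processed all wild-type arrays, station 3 all sup2- arrays and station 2 all esa1 sup2- arrays, so station and strain cannot be told apart. The second sup2- array stood apart: log2 differences between arrays of one strain had an SD over probe sets of 0.0900 between sup2- arrays 1 and 3, and of 0.211 and 0.206 where array 2 was one of the pair. The range over esa1 sup2- pairs was 0.262 to 0.323. Results that rest on the second sup2- array are given below with and without it. Because each sample is a whole culture, fewer cells with a transcript and less transcript per cell cannot be told apart in any value here.

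RNR2 and RNR4 encode the 2 small-subunit proteins. The RNR2 signal was 5284 and 5944 in the wild type, 3662, 3615 and 4058 in the sup2- strain, and 6715, 6764 and 6018 in the esa1 sup2- strain. Every sup2- array was below every other array, and every esa1 sup2- array was above every wild-type array. On the scale used throughout, log2(signal + 121), the sup2- strain differed from the wild type by −0.56 (SE 0.09, signal ratio 0.673), and the esa1 sup2- strain from the sup2- strain by 0.76 (SE 0.08, ratio 1.72). The esa1 sup2- strain differed from the wild type by 0.21 (SE 0.09, ratio 1.16), a difference that was −0.07 after quantile normalization. RNR2 had the 328th highest difference between esa1 sup2- and sup2- of 4372 genes and the 351st lowest between the sup2- strain and the wild type.

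For RNR4, the partner of RNR2 in the small subunit, the sup2- strain was not below the wild type. Its signal was 4973 and 5187 in the wild type, 5407, 4839.8 and 5122 in the sup2- strain, and 6492, 6781 and 6147 in the esa1 sup2- strain. The wild-type and sup2- arrays overlapped, with a difference of 0.01 (SE 0.07), and all esa1 sup2- arrays lay above both. The esa1 sup2- strain was 0.33 (SE 0.06, ratio 1.26) above the sup2- strain and 0.34 (SE 0.07, ratio 1.27) above the wild type. Under quantile normalization these differences were 0.09 and 0.07, and under scaling to the poly-A control transcripts 0.57 and 0.64. Mean signals therefore stood in the order sup2- strain, wild type, esa1 sup2- strain for RNR2, while for RNR4 the first pair of these strains did not differ beyond their spread.

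RNR3 encodes the damage-inducible large subunit and is the gene classically used to report activation of the checkpoint. Its signal was 441 and 434 in the wild type and 356, 353 and 441 in the esa1 sup2- strain. In the sup2- strain it was 614, 154 and 547, so the second array stood far below the others. All 3 pairs of strains overlapped, with differences of −0.12 (SE 0.35), −0.03 (SE 0.31) and −0.15 (SE 0.35) for sup2- against the wild type, esa1 sup2- against sup2-, and esa1 sup2- against the wild type. The SE is pooled over the 3 strains. For esa1 sup2- against the wild type it therefore includes the spread of the sup2- arrays, which are in neither group. Without the second sup2- array, the first difference was 0.33 (SE 0.11) and the second −0.48 (SE 0.10), and the arrays no longer overlapped. Without esa1 sup2- array 3, the remaining esa1 sup2- arrays lay below both wild-type arrays. The mean RNR3 signal was 437 ± 4.68 (SD, n = 2) in the wild type, 438 ± 248 (SD, n = 3) in the sup2- strain and 383 ± 49.96 (SD, n = 3) in the esa1 sup2- strain, and no neighbours in this order differed beyond their spread.

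HUG1, the small inhibitor of the enzyme, had the widest range of the 8 genes on the log2 scale. Its signal was 61.3 and 56.9 in the wild type, 222, 37.0 and 219 in the sup2- strain, and 1851, 1490.2 and 2133 in the esa1 sup2- strain. The 3 esa1 sup2- arrays were far above all others, while the sup2- arrays lay on both sides of the wild type. The esa1 sup2- strain was 2.87 (SE 0.27, signal ratio 11.5) above the sup2- strain and 3.42 (SE 0.31, ratio 30.9) above the wild type. These were the 3rd and the 4th highest differences of 4372 genes in their comparisons. The pseudocount compresses differences of dim genes, and with 1 in place of 121 these differences were 3.88 and 4.91. The sup2- strain was 0.55 (SE 0.31) above the wild type, or 0.92 (SE 0.14) without its second array. The difference between esa1 sup2- and sup2- was then 2.50 (SE 0.13).

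HUG1 and RNR3 were both low on the second sup2- array. Relative to the mean of arrays 1 and 3, array 2 was lower by a log2 difference of −1.11 for HUG1, below which lay 15 of 4398 probe sets, and of −1.35 for RNR3, below which lay 6. Of all probe sets, 2.5% lay at or below −0.48 and 2.5% at or above 0.33. The other 5 genes kept lay within these bounds, RFX1 at −0.28, DUN1 at 0.05, RAD54 at 0.05, RNR2 at −0.09 and RNR4 at −0.12. RNR1, the other large-subunit gene, was higher there by 0.58, a deviation exceeded by 12 probe sets.

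RFX1 encodes the DNA-binding repressor of the RNR genes. Its signal was 341 and 311 in the wild type, 626, 497 and 629 in the sup2- strain, and 368, 328 and 371 in the esa1 sup2- strain. The sup2- strain was above both other strains on every array, by 0.65 (SE 0.10, signal ratio 1.79) against the wild type, and the esa1 sup2- strain was 0.56 (SE 0.09) below it. Under poly-A control scaling the esa1 sup2- and sup2- arrays overlapped, with a difference of −0.37 (SE 0.17). As deposited, arrays of the esa1 sup2- strain and of the wild type overlapped, with a difference of 0.09 (SE 0.10). Under the 3 other scalings all esa1 sup2- arrays lay above the wild type, by 0.17 (median centring), 0.20 (quantile normalization) and 0.32 (poly-A controls), and without wild-type array 1 or esa1 sup2- array 2 the overlap also ended, at 0.14 and 0.13.

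DUN1 encodes the checkpoint kinase that acts on Sml1, Dif1 and Rfx1. Its signal was 582 and 508 in the wild type, 1540.2, 1645 and 1622 in the sup2- strain, and 1125, 1196 and 1049 in the esa1 sup2- strain. The 3 strains did not overlap, and the esa1 sup2- strain lay between the others. The sup2- strain was 1.37 (SE 0.09, signal ratio 2.94) above the wild type, the 37th highest difference of 4372 genes. The esa1 sup2- strain was 0.90 (SE 0.09, ratio 2.06) above the wild type and 0.47 (SE 0.08) below the sup2- strain. Under poly-A control scaling the latter difference was −0.24 (SE 0.19), and the arrays of these 2 strains overlapped.

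RAD54 encodes a motor protein of recombinational repair. Its signal was 305 and 316 in the wild type, 452, 473 and 456 in the sup2- strain, and 323, 325 and 303 in the esa1 sup2- strain. The sup2- strain was above both other strains on every array, by 0.43 (SE 0.07, signal ratio 1.48) against the wild type, and the esa1 sup2- strain was 0.41 (SE 0.06) below it. Under poly-A control scaling the esa1 sup2- and sup2- arrays overlapped, with a difference of −0.22 (SE 0.16). The esa1 sup2- and wild-type arrays overlapped, with a difference of 0.02 (SE 0.07). They no longer overlapped, with esa1 sup2- higher, under quantile normalization (0.14), under poly-A control scaling (0.24) and without esa1 sup2- array 3 (0.05).

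DIN7 encodes a damage-inducible nuclease of the mitochondrion. Its signal was 183 and 183 in the wild type, 312, 339.9 and 301 in the sup2- strain, and 188, 179.9 and 181 in the esa1 sup2- strain. In a fit without the filter on dim probe sets, the sup2- strain was 0.53 (SE 0.06, signal ratio 1.74) above the wild type and the esa1 sup2- strain 0.53 (SE 0.06) below the sup2- strain. The wild type and the esa1 sup2- strain overlapped, with a difference of 0.00 (SE 0.06).

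**Figure D1:**
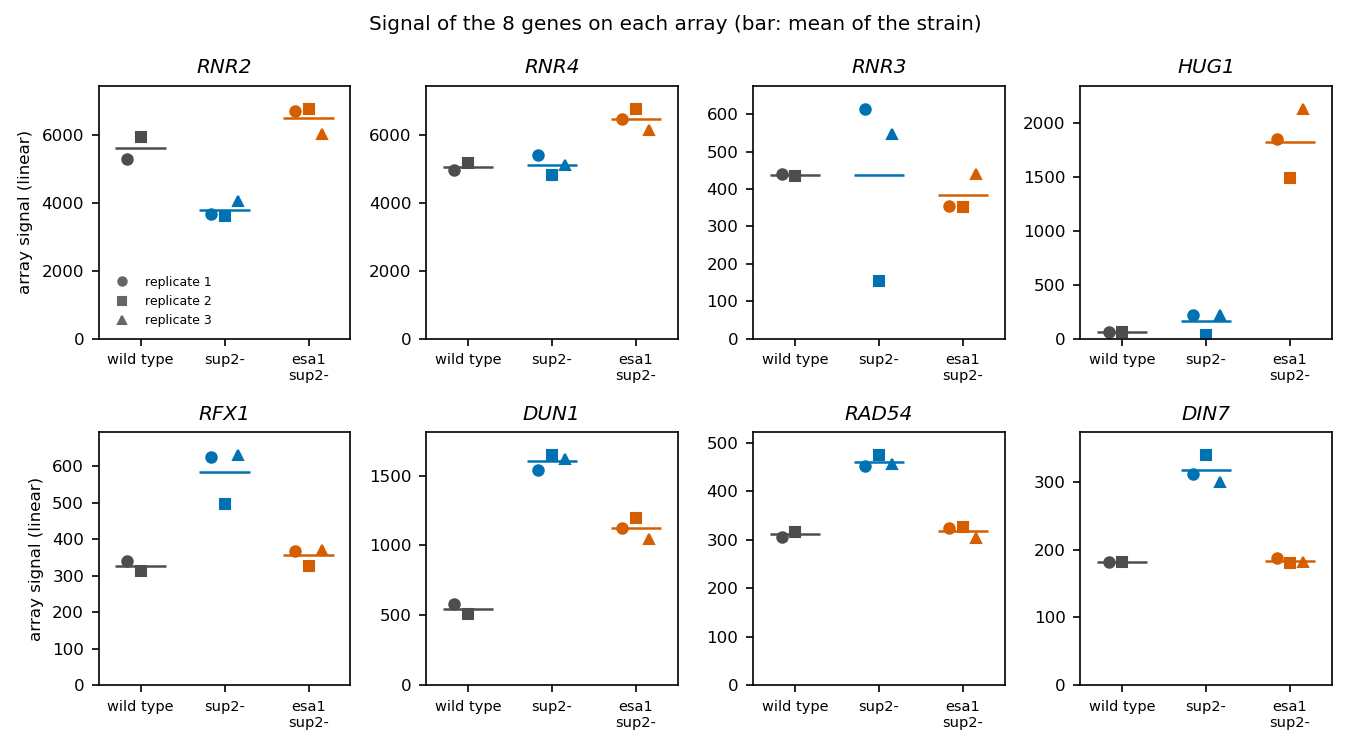
Deposited array signal (linear scale, arbitrary units) of the 8 genes on each array, by strain; symbols mark the replicate and bars the mean of the strain. HUG1 lies between 1490.2 and 2133 in the esa1 sup2- strain and at or below 222 elsewhere, RNR2 dips in the sup2- strain, RFX1, DUN1, RAD54 and DIN7 are highest in the sup2- strain, and RNR3 is at 154 on the second sup2- array.

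**Figure D2:**
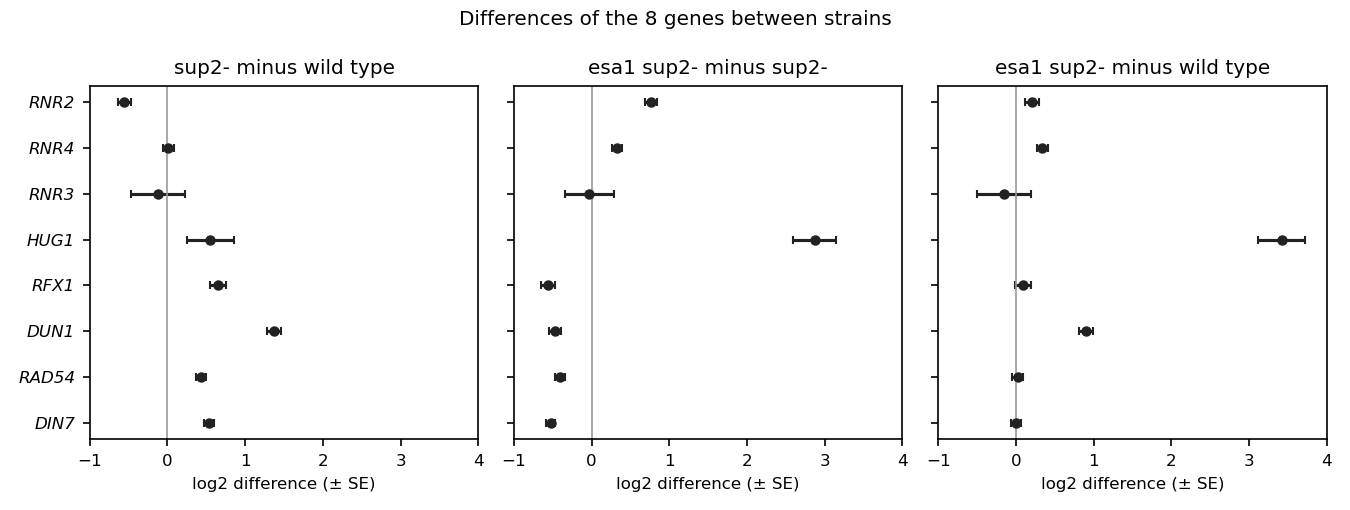
Difference in log2(signal + 121) between strains for the 8 genes, with points for the fitted difference and bars for its standard error. HUG1 stands at 2.87 and 3.42 against the sup2- strain and the wild type, and RFX1, DUN1, RAD54 and DIN7 lie above 0 in the sup2- strain against the wild type and below 0 in esa1 sup2- against sup2-.

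RFX1 and RAD54 had the most alike profiles, with a root mean square difference over the 8 arrays of 0.144 after each gene's log2 values were centred on their own mean. RNR2 and RNR4 followed at 0.250. The measure was not scaled to the range of each gene, so genes that vary little lie close, and no background over gene pairs was taken. HUG1 was 1.35 to 1.66 from the other 6 genes kept, and its nearest among them was RNR2. Its median difference from all other genes kept was 1.56. Among the known Rfx1 targets, HUG1, RNR2 and RNR4 were above the sup2- strain on every esa1 sup2- array, RNR3 overlapped between the strains and RFX1 itself was below.

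Of the 7 genes kept, 3 were higher in sup2- than in the wild type and 1 lower with no overlap between arrays, where 40.4% of all 4398 probe sets were higher and 37.4% lower in this way. In esa1 sup2- against sup2-, 3 were higher and 3 lower, beside 33.5% and 37.3% of all probe sets. Under scaling to the poly-A controls RFX1, DUN1 and RAD54 overlapped in that comparison, and 0 genes were lower without overlap, and under quantile normalization RNR4 overlapped. In the esa1 sup2- strain against the wild type, 4 were higher and 0 lower, beside 41.8% and 40% of all probe sets. Poly-A control scaling made it 6 higher, with RFX1 and RAD54 added, median centring 5, with RFX1 added, and quantile normalization 5, with RFX1 and RAD54 added and RNR2 overlapping. Median log2 differences of the 7 genes were 0.43, −0.03 and 0.21. As these contrasts were known when the genes were listed, nothing is read from the counts.

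Genes that act on the same enzyme but were not among the 8 could be tested. The limma fit across all 4398 probe sets kept was used, with Benjamini-Hochberg adjustment over all of them and a threshold of 0.05. It called 28.5% of all probe sets higher and 22.1% lower in the sup2- strain against the wild type, 31.8% and 35.8% in esa1 sup2- against sup2-, and 37.9% and 36.6% in the esa1 sup2- strain against the wild type. Higher probe sets made up 56.3%, 47% and 50.9% of the calls in these comparisons, and 69.2%, 68.7% and 68.3% under poly-A control scaling. Median centring of the arrays gave 60% in esa1 sup2- against sup2-. The median difference over all probe sets moved by 0.13 in that comparison under median centring, and by 0.21 and 0.26 in both comparisons of the esa1 sup2- strain under poly-A control scaling.

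Of 10 listed subunits and regulators of ribonucleotide reductase other than the 8 genes, 9 were tested. In the sup2- strain against the wild type 3 rose and 2 fell, in esa1 sup2- against sup2- 2 rose and 2 fell, and in the esa1 sup2- strain against the wild type 4 rose and 3 fell. Their median log2 differences were 0.21, 0.05 and 0.28, beside 0.01, −0.02 and 0.01 over all probe sets.

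WTM1 encodes a nuclear protein that anchors the small subunit in the nucleus. Its signal was 5653 and 6381 in the wild type, 4314, 4091 and 4102 in the sup2- strain, and 462, 475 and 400.4 in the esa1 sup2- strain. It fell in the sup2- strain by 0.51 (SE 0.09, limma adjusted p = 0.0017), a call lost under poly-A control scaling (adjusted p = 0.089). It fell further in the esa1 sup2- strain, by 2.92 against the sup2- strain (SE 0.08, limma adjusted p = 1.8e-08), where the sup2- signal was 9.35 times as high. WTM2, its paralog, differed by 0.26, 0.09 and 0.35 in the 3 comparisons and passed the test in none. It was low on the second sup2- array, and without that array it was called higher in the sup2- strain (0.43, limma adjusted p = 0.0035) and in the esa1 sup2- strain against the wild type (0.35, adjusted p = 0.0027). The latter was also called under each of the 3 other scalings (0.43 to 0.58, limma adjusted p from 0.0030 to 0.026).

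DIF1, which encodes the factor that imports the small subunit into the nucleus, moved the other way. Its signal was 134 and 115 in the wild type, 305, 287 and 320.4 in the sup2- strain, and 676, 970.2 and 903 in the esa1 sup2- strain. The 3 strains did not overlap. DIF1 rose in the sup2- strain by 0.79 (SE 0.13, limma adjusted p = 0.0010) and again in esa1 sup2- against sup2- by 1.18 (SE 0.11, limma adjusted p = 3.0e-05), where the signal ratio was 2.79. KAP122, an import receptor gene, was below the filter, with signals between 163 and 258.

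RNR1, the other large-subunit gene, read 512 and 437 in the wild type, 681, 1058 and 657 in the sup2- strain, and 902, 1461 and 1158 in the esa1 sup2- strain. It rose in the esa1 sup2- strain against the wild type by 1.10 (SE 0.22, limma adjusted p = 0.0013). The steps between were near the threshold, at 0.60 (SE 0.22, limma adjusted p = 0.043) for the sup2- strain against the wild type and 0.50 (SE 0.19, limma adjusted p = 0.045) for esa1 sup2- against sup2-. The first was lost under quantile normalization and median centring (adjusted p = 0.052 and 0.059), without either wild-type array and without sup2- array 1 or 2, and the second without any of 6 arrays, with adjusted p up to 0.21 and 0.15 respectively. SML1, the gene of the large-subunit inhibitor, read 4938 and 5378 in the wild type, between 5982 and 6198 in the sup2- strain and between 5830 and 6897 in the esa1 sup2- strain. Its rise over the wild type was 0.28 (SE 0.08, limma adjusted p = 0.010) in the esa1 sup2- strain, or 0.01 under quantile normalization (adjusted p = 0.79), and the call was lost without wild-type array 1 (adjusted p = 0.085). In the sup2- strain it was 0.23 (limma adjusted p = 0.039), a call lost without any 1 of 6 arrays and under median centring or poly-A control scaling (adjusted p = 0.16 and 0.31).

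Transcriptional regulators of the RNR genes were tested too. CRT10, which encodes a regulator of RNR2 and RNR3 transcription, fell by 0.44 in esa1 sup2- against sup2- (SE 0.08, limma adjusted p = 9.4e-04; 0.23 under poly-A control scaling). IXR1, whose product is needed for RNR1 expression, fell by 0.70 in the esa1 sup2- strain against the wild type (SE 0.14, limma adjusted p = 0.0015; 0.057 under poly-A control scaling). Its fall by 0.40 in the sup2- strain (limma adjusted p = 0.040) was lost without any 1 of the 5 arrays compared. TUP1, a subunit of the corepressor that Rfx1 recruits, differed by −0.14, −0.15 and −0.29 and passed the test in none of the 3 comparisons, but without esa1 sup2- array 1 it was called lower in the esa1 sup2- strain against the wild type (−0.39, limma adjusted p = 0.024). Its partner CYC8 rose by 0.40 in the esa1 sup2- strain against the wild type (SE 0.10, limma adjusted p = 0.0070) and was not called in the other comparisons. In esa1 sup2- against sup2- it was called higher under each of the 3 other scalings (0.32 to 0.39, limma adjusted p from 0.0046 to 0.042) and without esa1 sup2- array 2 (0.27, adjusted p = 0.017).

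**Figure D3:**
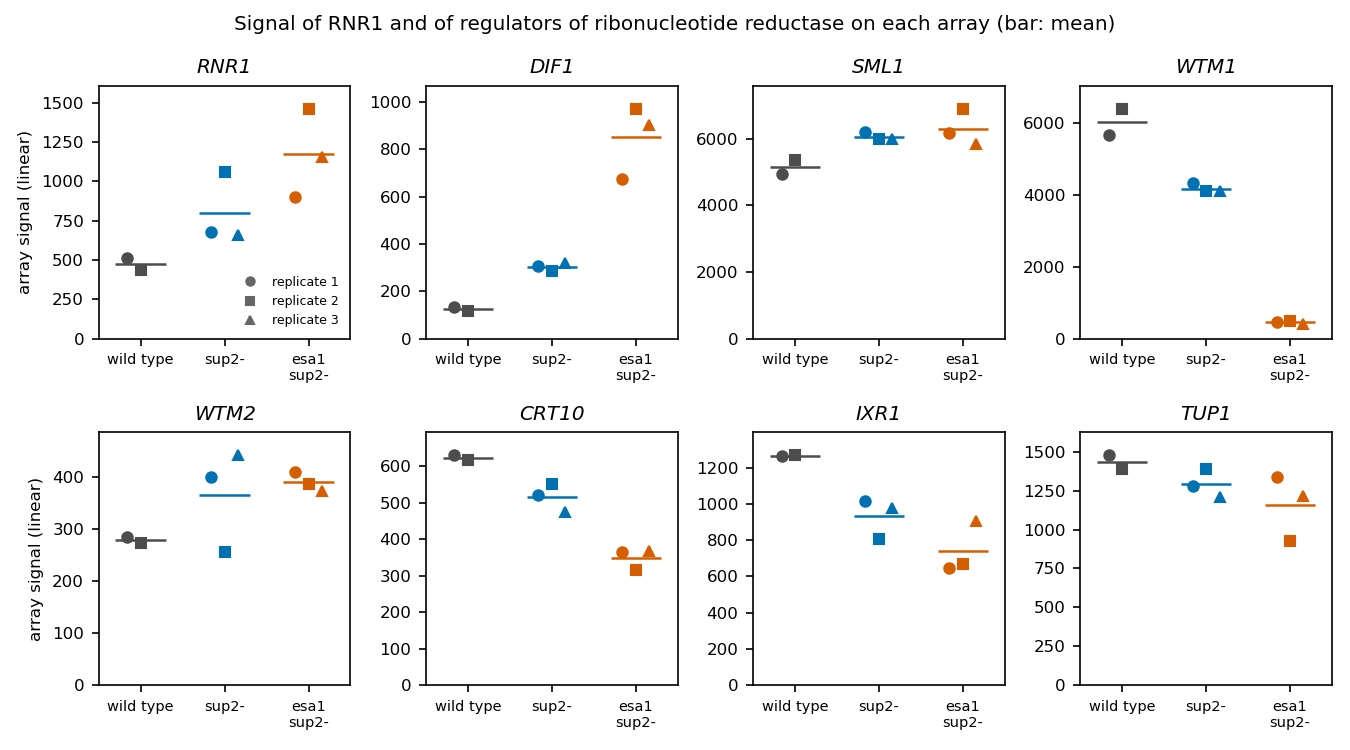
Deposited array signal (linear scale, arbitrary units) of RNR1 and 7 regulators of ribonucleotide reductase on each array, by strain; symbols mark the replicate and bars the mean of the strain. WTM1 lies between 400.4 and 475 in the esa1 sup2- strain and at or above 4091 elsewhere, and DIF1 steps up from the wild type through sup2- to the esa1 sup2- strain.

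MEC1, the gene of the kinase at the head of the pathway, had its lowest signals in the esa1 sup2- strain. It read 649 and 593 in the wild type, 1011, 1036 and 1115 in the sup2- strain, and 369, 289 and 484 in the esa1 sup2- strain. It rose in the sup2- strain by 0.66 (SE 0.14, limma adjusted p = 0.0050) and fell in esa1 sup2- against sup2- by 1.25 (SE 0.13, limma adjusted p = 4.6e-05). The esa1 sup2- strain differed from the wild type by −0.58, a call lost under poly-A control scaling (−0.34, limma adjusted p = 0.13). RAD53, the gene of the kinase between Mec1 and Dun1, was below the filter and not tested. It read 159 and 152 in the wild type, 267, 264 and 258 in the sup2- strain, and 236, 209 and 229.9 in the esa1 sup2- strain. CHK1, which encodes a second effector kinase, fell by 0.43 in esa1 sup2- against sup2- (SE 0.09, limma adjusted p = 0.0035), a call lost under poly-A control scaling (adjusted p = 0.26). Of the 12 checkpoint genes tested of 18 listed, 3 rose and 2 fell in the sup2- strain against the wild type. In esa1 sup2- against sup2- 1 rose and 6 fell, and against the wild type 1 rose and 7 fell. MEC3, a gene of the checkpoint clamp, fell by 0.89 in esa1 sup2- against sup2- (SE 0.06, limma adjusted p = 5.9e-06), and TEL1, the other apical kinase gene, by 0.66 against the wild type (SE 0.10, limma adjusted p = 3.1e-04). PTC3, which encodes a phosphatase of Rad53, fell by 0.36 in the sup2- strain (SE 0.08, limma adjusted p = 0.0057), a call lost without wild-type array 1 (adjusted p = 0.070) and under poly-A control scaling (adjusted p = 0.27).

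Recombination genes outside the 8 were on a list drawn up with earlier results of these arrays known. Of 9 tested among 14 measured, 6 rose and 1 fell in the sup2- strain against the wild type (66.7% and 11.1%). Of all probe sets 28.5% and 22.1% did so. The MUS81 rise in that comparison was not called under any of the 3 other scalings (limma adjusted p from 0.059 to 0.19). In esa1 sup2- against sup2- 0 rose and 3 fell, beside 31.8% and 35.8% of all probe sets. By limma 0 were higher there also at an unadjusted p under 0.05. Against the wild type 5 rose and 2 fell, beside 37.9% and 36.6%. RDH54, a paralog of RAD54, rose by 0.78 in the sup2- strain (SE 0.08, limma adjusted p = 1.3e-04) and by 0.84 in the esa1 sup2- strain against the wild type (SE 0.08, limma adjusted p = 1.9e-05). RAD52, the central gene of homologous recombination, rose by 0.45 (SE 0.08, limma adjusted p = 0.0014) and 0.50 (SE 0.08, limma adjusted p = 2.7e-04) in the same comparisons. EXO1, which encodes a nuclease that resects DNA ends, rose by 0.65 and 0.76 (both SE 0.07, limma adjusted p = 1.4e-04 and 1.4e-05). In the esa1 sup2- strain against the wild type, RAD54 stood at 0.02. RAD50, of the end-binding complex, fell by 0.49 and the nuclease gene MUS81 by 0.35 in esa1 sup2- against sup2- (limma adjusted p = 0.0015 and 0.0042), and under poly-A control scaling both calls were lost (adjusted p = 0.087 and 0.33), that of MUS81 also under quantile normalization (0.13).

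Excision repair was mixed. Of 12 genes tested among 16, 3 rose and 5 fell in the sup2- strain, 4 rose and 7 fell in esa1 sup2- against sup2-, and 5 rose and 7 fell in the esa1 sup2- strain against the wild type. OGG1, the 8-oxoguanine glycosylase gene, rose by 0.996 in the sup2- strain (SE 0.08, limma adjusted p = 3.1e-05), and NTG2, another glycosylase gene of base excision repair, fell by 0.82 (SE 0.07, limma adjusted p = 4.3e-05). RAD4, which encodes the damage sensor of nucleotide excision repair, fell by 0.70 in esa1 sup2- against sup2- (SE 0.06, limma adjusted p = 1.8e-05), and the nuclease gene RAD2 by 0.84 (SE 0.08, limma adjusted p = 2.2e-05). Against the wild type, NTG2 was lower by −1.16 and RAD4 by −1.15 in the esa1 sup2- strain.

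The smaller lists held few genes above the filter. MSH6 of mismatch repair, 1 of 2 genes tested, rose by 0.71 in the sup2- strain (SE 0.12, limma adjusted p = 0.0012) and fell by 0.82 in esa1 sup2- against sup2- (SE 0.10, limma adjusted p = 1.4e-04). MLH3, the other, fell by 0.66 in the latter comparison (SE 0.11, limma adjusted p = 6.1e-04). Of 7 postreplication repair genes tested, POL30, which encodes the sliding clamp PCNA, rose by 1.01 in the sup2- strain (SE 0.15, limma adjusted p = 6.0e-04) and by 1.30 in the esa1 sup2- strain against the wild type (SE 0.15, limma adjusted p = 4.1e-05). RAD6, the ubiquitin-conjugating enzyme gene, rose by 0.59 in esa1 sup2- against sup2- (SE 0.09, limma adjusted p = 4.0e-04), and REV3, of the translesion polymerase, fell by 0.71 (SE 0.09, limma adjusted p = 1.8e-04). Both end-joining genes tested, YKU70 and DNL4, fell in the esa1 sup2- strain against the wild type, by 0.84 (SE 0.11, limma adjusted p = 9.8e-05) and 0.78 (SE 0.16, limma adjusted p = 0.0019).

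Of the other genes known to be induced by DNA damage, 5 were tested among 8 measured. Of these, 0 rose and 1 fell in the sup2- strain by the limma fit, 1 rose and 2 fell in esa1 sup2- against sup2-, and 0 rose and 2 fell in the esa1 sup2- strain against the wild type. Both counts of 0 were also 0 at an unadjusted limma p under 0.05. MAG1, which encodes an alkyladenine glycosylase, and DDI1, its divergently transcribed neighbour, fell in esa1 sup2- against sup2- by 1.23 (SE 0.10, limma adjusted p = 1.0e-05) and 1.33 (SE 0.11, limma adjusted p = 1.2e-05). DDR48, a stress gene, fell by 0.61 in the sup2- strain (SE 0.10, limma adjusted p = 0.0010) and rose by 0.62 in esa1 sup2- against sup2- (limma adjusted p = 2.5e-04).

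Over all 8 pathway lists, 58 of 85 measured genes were tested. The sup2- strain against the wild type had 18 higher (31%) and 12 lower (20.7%), beside 28.5% and 22.1% of all probe sets. The esa1 sup2- against the sup2- strain had 9 higher (15.5%) and 24 lower (41.4%), beside 31.8% and 35.8%. With median centring the counts in that comparison were 17 and 21, with quantile normalization 15 and 22, and with poly-A control scaling 13 and 12. The esa1 sup2- strain against the wild type had 17 higher (29.3%) and 26 lower (44.8%), beside 37.9% and 36.6%, or 21 and 15 with poly-A control scaling. Median log2 differences over the 58 genes were 0.02, −0.17 and −0.10. The lists were drawn up with earlier results of these arrays known, and no set test was made.

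**Figure D4:**
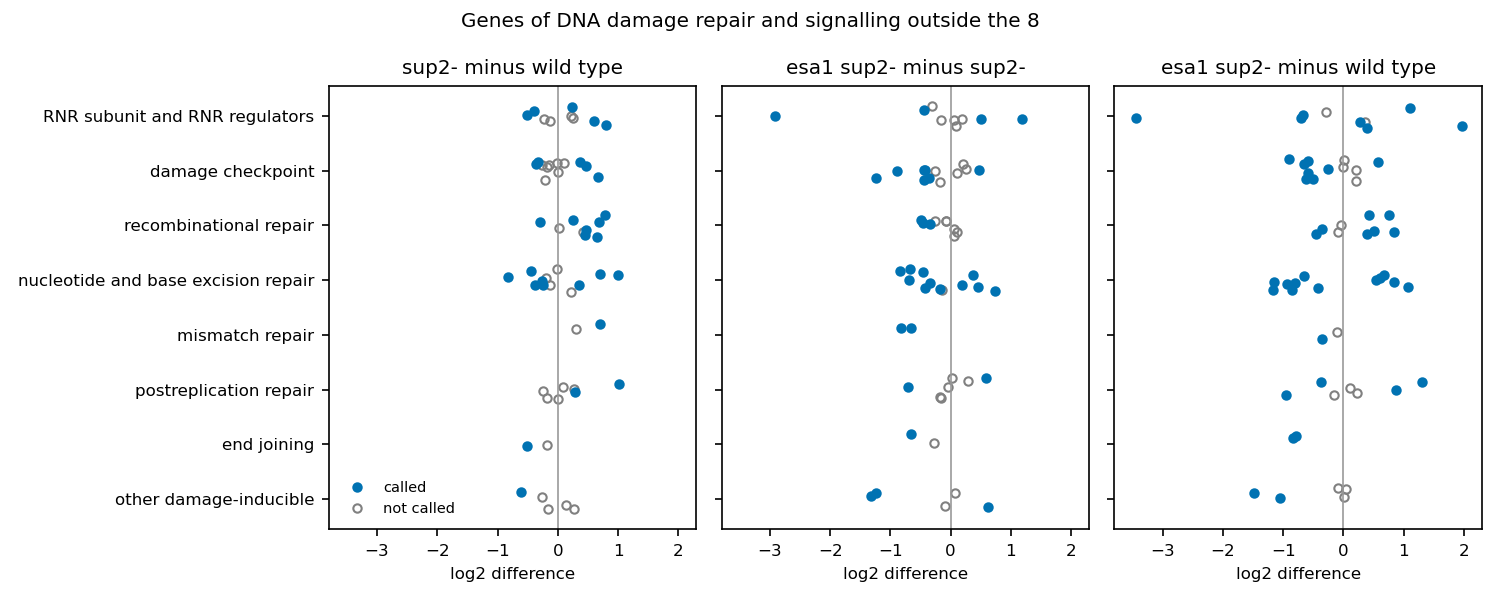
Difference in log2(signal + 121) of the 58 tested genes of DNA damage signalling and repair outside the 8, by list and comparison; filled points passed the limma test at an adjusted p of 0.05 and open points did not, and points are spread vertically only to keep them apart. WTM1 stands at −2.92 and −3.44 in the comparisons of the esa1 sup2- strain, and the excision repair genes lie on both sides of 0.

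On the signals as deposited, RFX1, DUN1, RAD54 and DIN7 were highest in the sup2- strain. The summed signals of S-phase genes and of early meiosis genes were highest there too. Of 16 S-phase and replication genes tested among 17, 12 rose and 0 fell in the sup2- strain by the limma fit (0 lower also at an unadjusted p under 0.05), with POL12 at 0.60 (SE 0.07, limma adjusted p = 2.4e-04) and CDC9 at 0.58. In esa1 sup2- against sup2- 1 rose and 12 fell, among them POL1 by 0.67 and POL12 by 0.59. CDC9 and CLB5 were not called in that comparison under any of the 3 other scalings. Their limma adjusted p was then 0.070 to 0.77 and 0.59 to 0.91. In the esa1 sup2- strain against the wild type 9 rose and 1 fell, with MCD1 at 0.88 and CLB5 at 0.42. The summed signal of the 17 genes was 7969 to 8640 in the wild type (2 arrays), 12125 to 13316 in the sup2- strain and 9794 to 10976 in the esa1 sup2- strain (3 arrays each). The 14 early meiosis genes summed to 1296 to 1357, 5969 to 6798 and 1881 to 2021 on the same arrays. Neither sum was recomputed under the other scalings, so their order under those is not known. Only 2 passed the filter, DMC1 and IME2, which rose by 3.02 and 2.20 in the sup2- strain (limma adjusted p = 1.2e-07 and 6.0e-06). The filter used the mean over all arrays, so high sup2- values helped a gene to pass it. These 2 p-values therefore do not stand for the list, whose other genes were not tested. SPO11, below the filter, had a mean signal of 85.5, 407 and 113 in the wild type, sup2- and esa1 sup2-. No gene of either list was below the background bound on any array, and the part of cells in S phase or meiosis in the values of RFX1, DUN1, RAD54 and DIN7 was not tested.

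The genes beside the 8 on their chromosomes were looked at next, from the order of genes in the RefSeq table. Of 16 neighbours, 12 were tested. In the sup2- strain 7 rose and 2 fell, beside 28.5% and 22.1% of all probe sets. In esa1 sup2- against sup2- 3 rose and 5 fell, beside 31.8% and 35.8%. Against the wild type 6 rose and 3 fell in the esa1 sup2- strain, beside 37.9% and 36.6%. HUG1 lies on chromosome XIII between SML1 and NTE1, a lipid esterase gene. NTE1 differed by −0.07 between esa1 sup2- and sup2- (SE 0.09, limma adjusted p = 0.52) and SML1 by 0.05 (SE 0.07, limma adjusted p = 0.53; −0.20 under quantile normalization, adjusted p = 0.0017), where HUG1 differed by 2.87. NTE1 rose in the sup2- strain by 0.73 (SE 0.10, limma adjusted p = 4.7e-04). Beside DUN1 on chromosome IV, POL3, the DNA polymerase delta gene, and GET3 rose in the sup2- strain by 0.34 and 0.27 (limma adjusted p = 0.015 and 0.045), where DUN1 differed by 1.37. The POL3 call was lost without either wild-type array or sup2- array 1 (adjusted p up to 0.097), and the GET3 call without any 1 of the 5 arrays compared (up to 0.20).

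Neighbours of the other genes were of both directions. Beside RFX1, CBF5 and YLR177W rose in esa1 sup2- against sup2- by 0.71 and 0.95 (limma adjusted p = 3.6e-05 and 4.0e-05), where RFX1 was 0.56 lower. Beside RAD54, YRB30 fell by 0.52 in the same comparison (limma adjusted p = 0.0032), and SUT1 was below the filter. Beside DIN7, YDR262W fell by 1.22 in the sup2- strain (SE 0.08, limma adjusted p = 1.5e-05), where DIN7 was higher, and AKR1 rose by 0.61 in esa1 sup2- against sup2- (limma adjusted p = 0.0013). Beside RNR3, YIL067C and FIS1 fell in esa1 sup2- against sup2- by 0.51 and 0.46 (limma adjusted p = 6.9e-04 and 0.0035). Under poly-A control scaling the calls of YRB30, YIL067C and FIS1 were lost (adjusted p = 0.13, 0.11 and 0.30), and so were those of POL3 and GET3 in the sup2- strain (0.14 and 0.27). Beside RNR4, OKP1 rose by 0.25 in the sup2- strain (limma adjusted p = 0.017), a call lost without either wild-type array or sup2- array 3 (adjusted p up to 0.13) and under poly-A control scaling (0.22). Both neighbours of RNR2, YJL027C and RRN7, were below the filter.

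The profile of HUG1 over the 8 arrays was set against those of the 4371 other genes kept, each centred on its own mean. The nearest were TIR1, with a root mean square log2 difference of 0.0909, ARI1 (0.249), HXT2 (0.267), INA1 (0.329) and YNR014W (0.439), where the median over all genes was 1.56. TIR1 encodes a cell wall mannoprotein, ARI1 an aldehyde reductase and HXT2 a glucose transporter. TIR1 read 103 and 82.0 in the wild type, 346 (array 1), 77.9 (array 2) and 325 (array 3) in the sup2- strain, and 2104, 1782 and 2778 in the esa1 sup2- strain. HXT2 read 251 and 227 in the wild type, 667, 293 and 850 in the sup2- strain, and 4412, 5119 and 4004 in the esa1 sup2- strain. Both shared with HUG1 the low value on the second sup2- array, at −1.20 and −1.08 against the mean of arrays 1 and 3. None of the 5 was on the lists of damage response genes, and a gene ordered by likeness to HUG1 on these arrays carries no test.

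**Figure D5:**
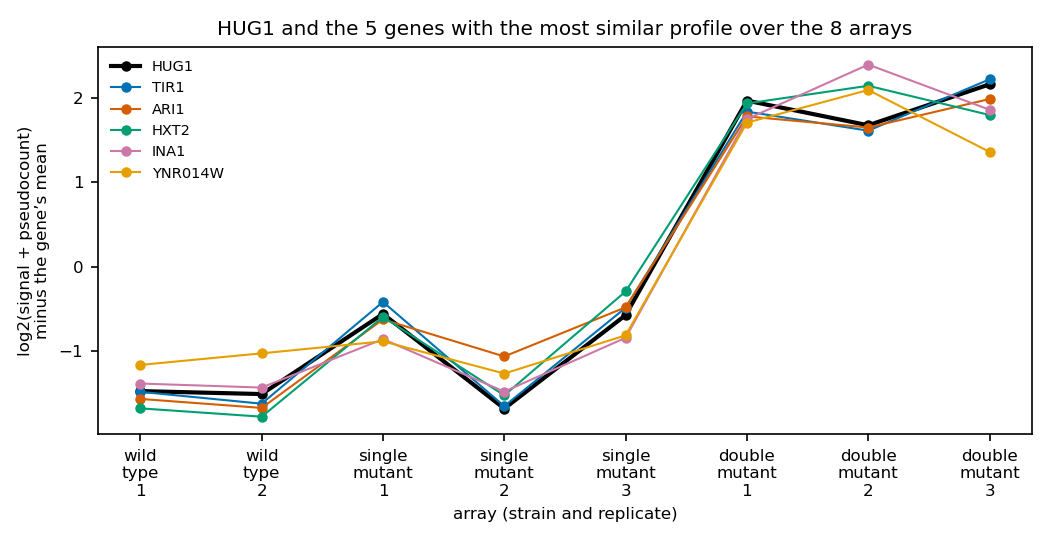
Log2(signal + 121) minus the gene's mean over the 8 arrays, for HUG1 and the 5 genes with the smallest root mean square difference from it; the horizontal axis gives the arrays by strain and replicate, and lines join the values of one gene. All 6 genes are highest on the 3 esa1 sup2- arrays and lower on the second sup2- array than on the other sup2- arrays, and TIR1 runs closest to HUG1 (0.0909).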

How the data were processed

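The deposited values are linear intensity signals, 1 per probe set. MAS5 and GCOS are the tools that the submitters' processing notes name for them, with no version in the sources used here. Per the labels' protocols, biotinylated cRNA came from 5 µg of total RNA per array. From the deposited instrument records only the fluidics station was used.

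The platform annotation named 1 S. cerevisiae gene for 5498 of 10928 probe sets, and RefSeq's gene table updated 12 symbols. Signals as deposited were put on the scale log2(signal + 121); the pseudocount is the 10th percentile of the yeast signals (120.909). Then the 20% of probe sets with the lowest mean log2 value were left out. One linear model of all 8 arrays with strain as the term was fitted to the remaining 4398 probe sets (4372 genes) with limma 3.58.1 in R 4.3.3 (lmFit, then eBayes with an intensity trend). Calls were made at 0.05 after Benjamini-Hochberg adjustment. For the 47 genes with several probe sets, the brightest was used. The number of arrays limits the precision. In simulated data with the arrays' own means and spreads, 80, 78 and 76% of probe sets changed 1.5-fold were called in the sup2- strain against the wild type, esa1 sup2- against sup2-, and the esa1 sup2- strain against the wild type, and 94, 98 and 88% of those changed 2-fold. Of the unchanged probe sets, 12, 13 and 5 were called. Only 50 probe sets were changed at each fold, with independent noise for each, while 2227 to 3277 were called on the real arrays. These shares may therefore not hold for the real data.

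The 8 genes and all lists were chosen with earlier results of these data known. The genes named outside the 8 are all regulators of ribonucleotide reductase listed, MEC1, RAD53, CHK1 and RAD52, the 2 called genes with the smallest p of each other list and comparison, the neighbours of the 8 genes, and the 5 profiles nearest to HUG1, with ESA1 and SPO11. Of 89 listed pathway symbols, 4 were not matched to a probe set and are not analysed here. The array's build is not named in the sources used here, so no coordinates are given. Same-numbered arrays of different strains did not deviate together (correlations of deviations from −0.09 to 0.14), so no replicate block was used. Alternatives were 2 other pseudocounts, 3 other scalings, 2 other filters, a fit without the trend, a robust variance, only the 2 groups compared, a replicate block and each array left out.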

Additional observations from a re-analysis of the deposited data

How the results depend on the processing

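Of 387 differences of the 8 genes recomputed under the alternatives, 325 kept their sign and moved by less than the spread between replicates, and 46 kept it and moved by more. A further 16 changed sign, 14 of them between values whose arrays overlapped both ways (up to 0.229 in size). The other 2 were RNR2 in the esa1 sup2- strain against the wild type, at −0.0697 after quantile normalization, and RNR3 in the sup2- strain against the wild type, at 0.328 without sup2- replicate 2 (−0.381 to 0.328 over arrays left out). Of 3090 differences of the other named genes, 2846 kept their direction and their side of the threshold, 140 lost the call and 61 gained it. Of 43 that changed sign, 38 were called neither way (up to 0.156 in size). SML1 in esa1 sup2- against sup2- was −0.197 after quantile normalization (adjusted p = 0.0017). OKP1 in esa1 sup2- against sup2- was 0.0189 after quantile normalization and 0.0043 under poly-A control scaling, CLB5 0.0251 in the same comparison under the latter, and PTC3 0.0056 in the esa1 sup2- strain against the wild type.

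With poly-A control scaling, 1226 probe sets were called in the sup2- strain against the wild type (2227 in the analysis reported). Pathway genes called lower were then 3 in that comparison, 12 in esa1 sup2- against sup2- and 15 in the esa1 sup2- strain against the wild type, and 0 of the 7 genes kept were lower without overlap in esa1 sup2- against sup2-. The controls of the first esa1 sup2- array were dimmest (105, against 146 to 167 elsewhere). Quantile normalization gave 19 pathway genes lower in the sup2- strain and 15 higher in esa1 sup2- against sup2-, and median centring 17 higher there. Without the filter, 42 pathway genes were lower in each comparison of the esa1 sup2- strain, since 85 genes were tested. Leaving out the dimmest 50%, which removes most pathway genes, 1377, 1930 and 2092 probe sets were called in the 3 comparisons. Pathway genes were then 7 higher and 5 lower in the sup2- strain against the wild type, 4 and 4 in esa1 sup2- against sup2-, and 6 and 6 in the esa1 sup2- strain against the wild type. Of the 8 genes only RNR2, RNR4 and DUN1 were left under this filter. Without overlap, DUN1 was higher in the sup2- strain against the wild type and lower in esa1 sup2- against sup2-. RNR2 was lower in the former and higher in the latter, and RNR4 overlapped in the former and was higher in the latter.

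Leaving out 1 array at a time, 1407 to 2515 probe sets were called in the sup2- strain against the wild type (1432 without wild-type replicate 1 and 1407 without replicate 2), with 11 to 22 pathway genes higher and 4 to 15 lower. Those lower were 4 and 5 without wild-type replicates 1 and 2, and 7 without sup2- replicate 1 or 3. Between 3 and 5 of the 7 genes kept were higher without overlap in that comparison, and 0 to 1 lower in the esa1 sup2- strain against the wild type (RNR3 without esa1 sup2- replicate 3). Shares of all probe sets without overlap were not counted under the alternatives, so nothing is read from these counts. A lone wild-type array is assumed to vary like the other groups. With the replicate number as a block, 2033, 2894 and 3196 probe sets were called in the 3 comparisons (2227, 2971 and 3277 without it). The signal over background limits the dimmest values: DIN7 and 27 of the 85 pathway genes measured, RAD53 and KAP122 among them, lay below the filter, and the causes of the changes with scaling were not tested.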
